A study of Mus musculus with 2 samples.

Results

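*Meis1*, *Meis2*, *Meis3*, *Pbx2* and *Pbx3* are 5 homeobox genes of the TALE superclass, and their expression was followed across the progenitors and neurons of the embryonic mouse telencephalon. They were selected by gene symbol, and all 5 rows were present in both count tables, among 28001 listed genes for septal explants and 32286 for the telencephalic vesicle. TALE proteins carry a homeodomain with a loop extended by extra residues. MEIS and PBX proteins bind each other and bind DNA together, PBX proteins also pair with HOX proteins where these are present, and binding to MEIS helps to bring PBX into the nucleus. The forebrain in front of the *Hox* domains still makes MEIS and PBX, and *Meis2* in particular is known from the lateral subpallium, from which striatal projection neurons and olfactory bulb interneurons arise.

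The data are 2 scRNAseq libraries, each a single pool without replicates. The first pooled septal explants of 8 *PGK Cre;Rosa26 YFP* embryos at E11.5, in which the ubiquitous PGK promoter drives Cre and turns on YFP, with those of 4 *Dbx1 Cre;Rosa26 tdTomato* embryos at E12.5, in which Cre marks cells of the *Dbx1* lineage. The second pooled telencephalic vesicles of 3 WT embryos labelled E12. The labels give both libraries as wild-type and C57BL/6J, and name no altered allele of *Meis* or *Pbx*. Embryos of several litters were pooled, so that no value can be traced to an animal. The septum is the medial part of the telencephalon, between pallium and subpallium.

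Transcripts were counted as unique molecular identifiers (UMIs), 1 per molecule caught. After filtering, 5384 cells with a median of 12868.5 UMIs were kept from the septal explants and 11758 with a median of 9058.5 from the vesicle, and 1 cell barcode was shared by both libraries. Clusters named from marker genes left 5019 neural cells in 26 clusters of the explants and 9779 in 21 clusters of the vesicle. Levels are given as CPM, that is, per 1000000 UMIs of the class, with exact Poisson 95% intervals that cover counting error only, so that a difference between classes is set against counting error and not against a spread between embryos. Since the kits and the counting differed, and since 3′ counts do not allow levels to be set between genes, each gene is compared only with itself, within 1 library. Erythroid-like cells were taken as a reference for free RNA, on the assumption, which was not tested, that they do not use these genes. Some neural classes of the explants lie below this reference, so it is not a strict floor. The 400 such cells of the vesicle held 3.46 CPM of *Meis1*, 30.1 of *Meis2*, 1.38 of *Meis3*, 20.4 of *Pbx2* and 72.0 of *Pbx3*. The 26 such cells of the explants held 4.12, 27.4, 5.49, 13.7 and 13.7 CPM in the same order.

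The 5 genes differ greatly in size. *Meis1* (ENSMUSG00000020160) is a minus-strand gene of chromosome 11 (GRCm38, mm10) that spans 139 kb, from 18879817 to 19018985. *Meis2* (ENSMUSG00000027210) is a minus-strand gene of chromosome 2 that spans 203 kb, from 115863064 to 116065839. On the same chromosome and strand, *Pbx3* (ENSMUSG00000038718) runs from 34171457 to 34373142 over 202 kb. The other two are short, with 11.4 kb for *Meis3* (ENSMUSG00000041420), on the plus strand of chromosome 7 from 16175090 to 16186504, and 6.14 kb for *Pbx2* (ENSMUSG00000034673), on the plus strand of chromosome 17 from 34591266 to 34597400. *Pbx2* overlaps *Gpsm3* on the same strand, *Meis1* overlaps 5 annotated noncoding or provisional genes, 3 of them on its own strand, and *Pbx3* overlaps the antisense gene *C79798*, so that reads in the shared stretches depend on how they were assigned.

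The promoter windows of *Meis1* and *Meis2* are shown because these members had the largest ratios between classes. They come from RefSeq (GRCm38.p6), hold 250 bases before and 50 after the start, and are written 5′ to 3′ on the minus strand, at chr11:19018920-19019219 for *Meis1* and chr2:116064570-116064869 for *Meis2*. Capitals mark CCAAT on either strand (ATTGG on the other strand) and TATAAA on the given strand.
Meis1: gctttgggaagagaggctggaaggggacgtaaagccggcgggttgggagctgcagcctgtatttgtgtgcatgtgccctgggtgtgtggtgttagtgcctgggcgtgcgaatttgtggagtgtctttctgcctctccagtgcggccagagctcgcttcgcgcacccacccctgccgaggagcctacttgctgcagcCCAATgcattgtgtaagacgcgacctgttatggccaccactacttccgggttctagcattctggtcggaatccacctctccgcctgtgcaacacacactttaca
Meis2: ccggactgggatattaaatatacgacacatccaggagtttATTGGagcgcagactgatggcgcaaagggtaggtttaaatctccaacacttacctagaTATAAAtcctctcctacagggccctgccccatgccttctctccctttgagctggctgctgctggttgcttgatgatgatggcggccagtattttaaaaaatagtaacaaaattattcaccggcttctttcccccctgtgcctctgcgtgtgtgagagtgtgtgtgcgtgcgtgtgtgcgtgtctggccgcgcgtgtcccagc
Of 32851 windows of this length, CCAAT on either strand was found in 37.4% and TATAAA in 13.6%. The letters TGACAG, which MEIS proteins can bind, were in 19.2% of all windows, TGATTGAT, which PBX proteins can bind with a partner, in 0.746%, and neither was in the windows of the 4 members with an entry. The RefSeq start of *Meis2* lies inside the annotated gene and not at its annotated 5′ end.

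*Meis2* was the member with the widest range of levels in the vesicle. Its highest level was in striatal-type GABAergic-like neurons, the young inhibitory neurons with *Isl1* and *Ebf1*, at 2786 CPM (interval 2725 to 2847). The neighbouring GABAergic class, named by *Lhx6* and made of cells of the kind that leave the medial ganglionic eminence, had the lowest level of all neural classes, 81.1 CPM (69.9 to 93.5). These 2 classes thus stood at opposite ends of the order, with 361 of 387 cells holding a *Meis2* UMI in the first (93.3%, exact Clopper-Pearson interval 90.3 to 95.6%) and 64 of 328 in the second (19.5%, 15.4 to 24.2%). Median depth was close, at 6807 and 6176 UMIs per cell, and with cells thinned to 3500 UMIs the shares were 92.6% and 10.3%, against 5.88% in erythroid-like cells with a median depth of 5428.5. Per cell, the striatal-type class had a median of 16 *Meis2* UMIs and a maximum of 121, and 67.4% of its cells had 10 or more, whereas 1.22% of the *Lhx6* class did.

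Among apical progenitors (APs) of the vesicle, *Meis2* was highest in the ventral pallial-like and subpallial-like classes and lowest in hem-like cells. Ventral pallial-like APs, which adjoin the subpallium, had 1302 CPM, and 454 of 455 of these cells held a UMI. Subpallial-like APs had 1021 CPM (1011 to 1031), APs without a regional name 618 (604 to 632), pallial-like APs 558 (549 to 566) and septal-like APs 553 (544 to 564), the last 2 with overlapping intervals. Hem-like cells, at the medial edge of the pallium, had 114 CPM (109.8 to 118), about the level of Cajal-Retzius-like neurons at 118 (101 to 136). Clusters within a class differed as well, so that the classes overlapped, with 365 and 642 CPM in the 2 pallial-like clusters and 323 and 709 in the 2 septal-like ones. Subpallial-like APs had 3 clusters, with 1044 and 1461 CPM in the clusters low in *Nkx2-1*, the selector gene of the medial ganglionic eminence (49.4 and 53.6 CPM of it), and 614 in the cluster with 315 CPM of *Nkx2-1*.

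The septal explants gave the same arrangement of *Meis2* around *Nkx2-1*. Of 5 subpallial-like AP clusters, the 2 with 533 and 837 CPM of *Nkx2-1* had 89.6 and 99.1 CPM of *Meis2*, and the other 3, with 19.7 to 70.0 CPM of *Nkx2-1*, had between 189 and 256. The highest class level was again in GABAergic-like neurons, at 417 CPM (391 to 443), with a UMI in 168 of 221 cells (76.0%, 69.8 to 81.5%). This class held *Lhx8*, *Nkx2-1* and *Isl1* but almost no *Lhx6* (3.33 CPM), and a finer division of it gave 124 cells with 34.0 CPM of *Nkx2-1* and 531 of *Meis2* beside 97 cells with 339 of *Nkx2-1* and 216 of *Meis2*. Subpallial-like APs followed at 209 CPM (202 to 216), then differentiating subpallial-like cells at 170.1 (155 to 186), pallial-like APs at 165 (158 to 172) and APs without a regional name at 163 (156 to 170.3), the last 3 with overlapping intervals. Septal-like APs had 76.7 CPM (71.5 to 82.2), and the lowest neural level was 42.6 (35.1 to 51.3) in Cajal-Retzius-like neurons.

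*Meis1* differed widely among neurons. Striatal-type GABAergic-like neurons of the vesicle had 319.9 CPM (299.6 to 341) and pallial glutamatergic-like neurons 302 (289 to 317), with overlapping intervals. *Lhx6* GABAergic-like neurons came next at 163 (147 to 180.3), together with differentiating subpallial-like cells at 158 (147 to 169). Cajal-Retzius-like neurons at 28.8 CPM (20.9 to 38.6) and basal progenitor (BP)-like cells, the intermediate step between AP and neuron in the pallium, at 55.5 (49.7 to 61.6) were lower, also below the ventral pallial-like and subpallial-like APs that follow. Ventral pallial-like APs had 138 CPM (131 to 145), subpallial-like APs 95.1 (92.0 to 98.2) and septal-like APs 55.3 (52.2 to 58.5). Pallial-like APs had 22.6 (20.9 to 24.4) and hem-like cells 20.2 (18.4 to 22.0) as pooled classes. By cluster they were less alike, with 5.86, 48.0 and 7.70 CPM in the 3 hem-like clusters and 15.4 and 25.8 in the 2 pallial-like ones. Subpallial-like APs were also divided, with 104 and 163 CPM in the clusters low in *Nkx2-1*. The cluster with 315 CPM of *Nkx2-1*, of 1120 cells, had 30.2. Outside the nervous system, macrophage-like cells held 91.7 CPM (76.1 to 109.6), a level above that of the erythroid-like cells.

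In the explants, *Meis1* was close to the detection limit in the dorsal classes. Only 11 *Meis1* UMIs were counted in 713 pallial-like APs (0.909 CPM, 0.454 to 1.63) and 1 in 123 hem-like cells, whereas 1038 subpallial-like APs held 218 (13.7 CPM, with an interval up to 15.7) and 747 septal-like APs held 180 (17.1 CPM, 14.7 to 19.7). GABAergic-like neurons were highest at 49.1 CPM (40.7 to 58.8), above septal glutamatergic-like neurons at 23.9 (19.3 to 29.4) and differentiating subpallial-like cells at 25.8 (20.2 to 32.4), whose intervals overlapped. At the finer division, the 97 GABAergic-like cells with 339 CPM of *Nkx2-1* had 89.4 of *Meis1* (70.7 to 112). The 124 cells with 34.0 of *Nkx2-1* had 26.1 (18.7 to 35.6), overlapping septal glutamatergic-like neurons. The named dorsal neuron classes stayed low, with 3.86 CPM (2.16 to 6.37) in pallial glutamatergic-like and 4.57 (2.36 to 7.98) in Cajal-Retzius-like neurons, and neither was above the erythroid-like cells. *Meis1* and *Meis2* thus parted in the pooled septal-like APs of the explants, where the *Meis1* interval overlapped that of subpallial-like APs and *Meis2* was lower. By cluster this was less clear, since 1 septal-like cluster had 97.5 CPM of *Meis2* and the subpallial-like clusters high in *Nkx2-1* had 89.6 and 99.1. In the vesicle both genes were lower in septal-like than in subpallial-like APs.

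*Meis3* marked neurons of every kind and separated the AP regions little. Septal glutamatergic-like neurons of the explants had 146 CPM (134 to 159), pallial glutamatergic-like 139 (128 to 151), Cajal-Retzius-like 113 (101 to 127) and GABAergic-like 97.0 (84.9 to 110.3), against 21.5 to 33.6 CPM over the 5 AP classes. BP-like cells lay between at 53.8 (47.0 to 61.4). The vesicle showed the same order of stages, with 58.9 to 85.4 CPM in the GABAergic-like and glutamatergic-like neurons, 34.7 (26.0 to 45.3) in Cajal-Retzius-like neurons, 34.3 (29.8 to 39.2) in BP-like cells and 11.1 to 22.9 over the 6 AP classes. Erythroid-like cells held 4 *Meis3* UMIs there, or 1.38 CPM (0.377 to 3.54).

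*Pbx2* was the most even member. Its level in neural classes of the vesicle ran from 45.8 CPM (35.7 to 57.8) in Cajal-Retzius-like neurons to 96.0 (90.7 to 102) in APs without a regional name, and that in mesenchyme-like cells, 86.7 (79.9 to 93.9), lay inside this range. The explants ran from 20.5 CPM (16.4 to 25.4) in BP-like cells to 46.2 (42.2 to 50.5) in septal-like APs. A UMI of *Pbx2* was held by 57.4% of neural cells of the vesicle and 36.0% of those of the explants, and by 12.8% of erythroid-like cells of the vesicle.

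*Pbx3* ordered the AP classes differently from *Meis2*, with its highest class level in septal-like APs. Septal-like APs of the vesicle had 335 CPM (327 to 343), subpallial-like APs 299 (293 to 304), ventral pallial-like APs 209 (200.1 to 217), hem-like cells 162 (157 to 167) and pallial-like APs 151 (147 to 156). Septal-like APs of the explants likewise led with 45.4 CPM (41.4 to 49.7), then subpallial-like APs with 36.6 (33.7 to 39.7), hem-like cells with 9.56 (5.76 to 14.9) and pallial-like APs with 4.79 (3.64 to 6.20). The clusters of the first 2 classes overlapped in both libraries. In the vesicle the septal-like clusters had 414 and 281 CPM and the subpallial-like ones 222, 334 and 301, and in the explants 2 of 4 septal-like clusters, with 26.6 and 35.1, lay inside the range of the subpallial-like ones, 26.1 to 41.4. Pallial glutamatergic-like neurons were highest in the vesicle, at 843 CPM (819 to 866), ahead of *Lhx6* GABAergic-like neurons at 667 (634 to 701) and striatal-type neurons at 612 (584 to 642). Cajal-Retzius-like neurons were the highest named class in the explants, at 68.1 CPM (58.5 to 78.9). Pallial glutamatergic-like neurons were near the bottom at 11.3 (8.23 to 15.2), not above the erythroid-like cells at 13.7 (6.58 to 25.2). Outside this class, an unnamed cluster of 154 cells with 311 CPM of *Emx1*, a gene of the pallial-like marker list, had 44.2 CPM of *Pbx3*. A UMI of *Pbx3* was held by 76.7% of neural cells of the vesicle (median depth 9622) and by 35.2% of erythroid-like cells (5428.5). Shares of this gene are to be read beside the latter, and whether it reflects free RNA was not tested.

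**Figure D1:**
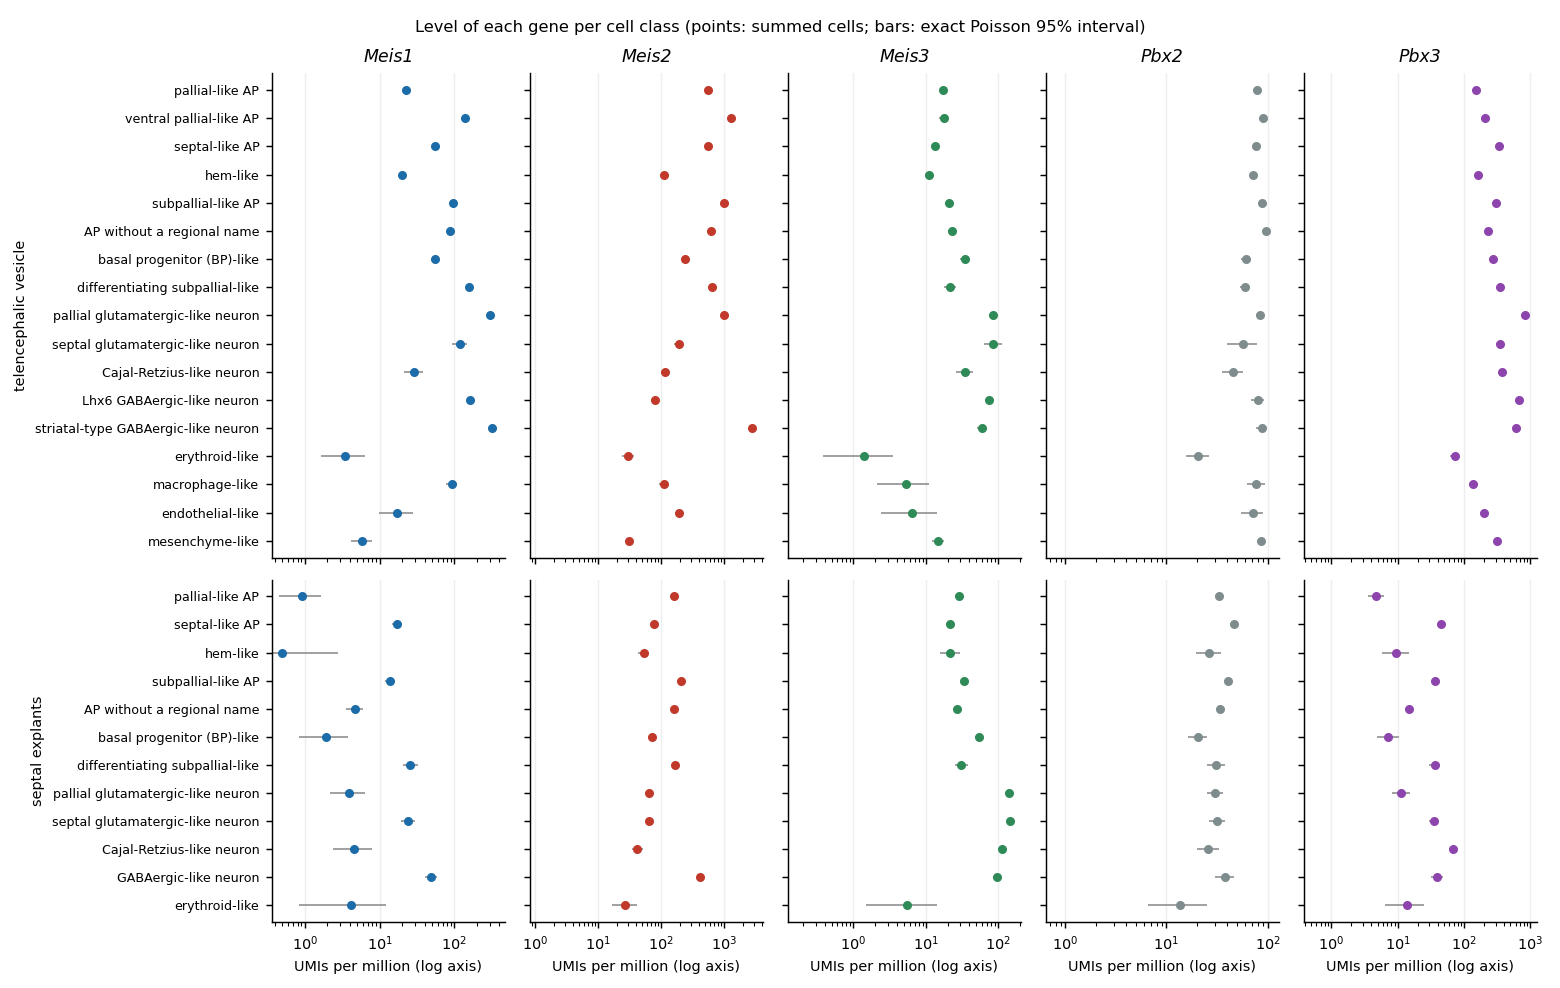
Level of each gene (CPM, log axis) in every cell class of the telencephalic vesicle (top) and of the septal explants (bottom). Points are the summed cells of a class and bars exact Poisson 95% intervals, cut at the axis edge for hem-like cells of the explants (*Meis1*). *Meis2* runs from 81.1 to 2786 CPM over neural classes of the vesicle, while *Pbx2* stays between 45.8 and 96.0.

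To set regions and stages against each other, the ratio of CPM between 2 classes was taken, with an exact interval for counting error, and a gene was counted when its ratio was at least 2 in either direction. Between subpallial-like and pallial-like APs of the explants, 2 of 5 members were apart, where 7.31% of 11058 measured genes were. *Meis1* was 15.1-fold higher (8.28 to 30.7) and *Pbx3* 7.63-fold (5.82 to 10.2) in the subpallial-like class, and *Meis2* had a ratio of 1.27 with an interval up to 1.34, and of 0.898 with another seed of the clustering. With marker-gated cells the first 2 ratios were 3.52 and 2.68. The pallial-like class was not above the erythroid-like cells in *Meis1* or *Pbx3*. The direction was the same in cells with and without the reporter of the E11.5 embryos. Among cells with at least 3 *YFP* UMIs, subpallial-like APs had 14.9 CPM of *Meis1* and 35.8 of *Pbx3*, and pallial-like APs had 0.878 and 6.32. Among cells without a *YFP* UMI, the former had 12.4 and 40.2 and the latter 0.820 and 3.48. *Meis2* in pallial-like APs was lower in the *YFP* cells, at 122 CPM (113 to 132), than in those without *YFP*, at 195 (183 to 208).

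The same regions of the vesicle had 1 of 5 members 2-fold apart, with 9.69% of 14029 measured genes. *Meis1* was 4.20-fold higher (3.86 to 4.57) in subpallial-like APs, and *Pbx3* and *Meis2*, with ratios of 1.98 (1.91 to 2.05) and 1.83 (1.80 to 1.86), were above 1 but under the threshold. The *Meis1* ratio pools unlike clusters. The subpallial-like cluster high in *Nkx2-1*, with 1120 of 2245 cells, had 30.2 CPM of *Meis1*, near the 25.8 of the deeper pallial-like cluster. The pallial-like class here held 2 clusters of unequal depth, with a median of 8960.5 and 23144 UMIs, and *Meis2* at 365 and 642 CPM. Set against the shallower cluster alone, a choice made after seeing the data, 3 members were 2-fold apart, with ratios of 6.19 for *Meis1*, 3.22 for *Pbx3* and 2.80 for *Meis2*. With cells gated on marker UMIs instead of clusters, no member was, and *Meis1* had a ratio of 1.86.

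Striatal-type over *Lhx6* GABAergic-like neurons gave 1 of 5 members apart, against 4.28% of 9032 genes. The *Meis2* ratio was 34.4 (29.7 to 39.9). *Meis1* was close to the threshold at 1.96 (1.74 to 2.22), and *Meis3*, *Pbx2* and *Pbx3* lay between 0.781 and 1.10. The size of the *Meis2* ratio depended on the cells taken, from 4.93 with all deposited barcodes to 64.5 with thinned cells, and its direction was the same under all 10 alternatives. The striatal-type class was not uniform, and whether its groups differ by stage or by identity was not tested. At a finer division its 68 cells farthest along the differentiation axis, with 3463 CPM of *Ebf1*, had 3044 CPM of *Meis2* (2918 to 3175), and a second group of 316, with 201 of *Ebf1*, had 2718 (2649 to 2789).

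GABAergic-like over pallial glutamatergic-like neurons gave different answers in the 2 libraries. In the explants 3 of 5 members were higher in the GABAergic-like class, beside 9.06% of 8309 genes apart in either direction, namely *Meis1* (12.7-fold, 7.41 to 23.5), *Meis2* (6.40-fold, 5.57 to 7.37) and *Pbx3* (3.45-fold, 2.39 to 5.06). The *Pbx3* ratio was under 2 with doublets kept (1.59), with all barcodes (1.72) and with cell cycle genes kept in the clustering (1.96), and that of *Meis1* ran from 4.87 with all barcodes to 42.8 at resolution 0.8. In the vesicle, where the GABAergic-like class pools 387 striatal-type and 328 *Lhx6* neurons, none of the 5 was apart, beside 9.67% of 10828 genes, with 0.827 (0.769 to 0.889) for *Meis1*, 1.56 (1.51 to 1.62) for *Meis2* and 0.755 (0.723 to 0.789) for *Pbx3*. The pooled *Meis2* ratio joins opposite differences, since striatal-type neurons alone gave 2.75 and *Lhx6* neurons alone 0.0800. The glutamatergic-like classes under these ratios were not alike. That of the explants had 799 CPM of *Tbr1*, 592 of *Neurod6* and 568 of *Neurod2*, the differentiation genes of cortical projection neurons. That of the vesicle had 382 CPM of *Tbr1* and 323 of *Slc17a6*, the vesicular glutamate transporter, but 14.8 of *Neurod6* and 32.6 of *Neurod2*.

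A finer division split the 729 vesicle neurons of this class. The largest group, 425 cells led by *Nxph1*, *Dscaml1* and *Lrfn5* and without a name at that resolution, had 349.5 CPM of *Meis1* (330.0 to 370), 1247 of *Meis2* (1210 to 1285) and 986 of *Pbx3* (953 to 1020). A group of 107 cells led by *Calb2*, which the markers placed with Cajal-Retzius-like neurons at that resolution, was close to it, with 404, 1123 and 879 CPM. The 166 cells led by *Otp*, *Sim1* and *Nhlh2*, which alone kept the glutamatergic-like name, were lower, with 131 (112 to 154), 411 (376 to 449) and 572 (530 to 617), and 29 BP-like cells had 67.4, 291 and 42.1. *Otp* and *Sim1* are also on the list of diencephalic-like markers used for naming. The high *Meis2* level of the glutamatergic-like class of the vesicle thus lay in the first 2 groups. With the finer clusters, with cell cycle genes kept in the clustering, or with all barcodes, 2 members (*Meis1* and *Meis2*) were higher in the GABAergic-like class of the vesicle instead of none.

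**Figure D2:**
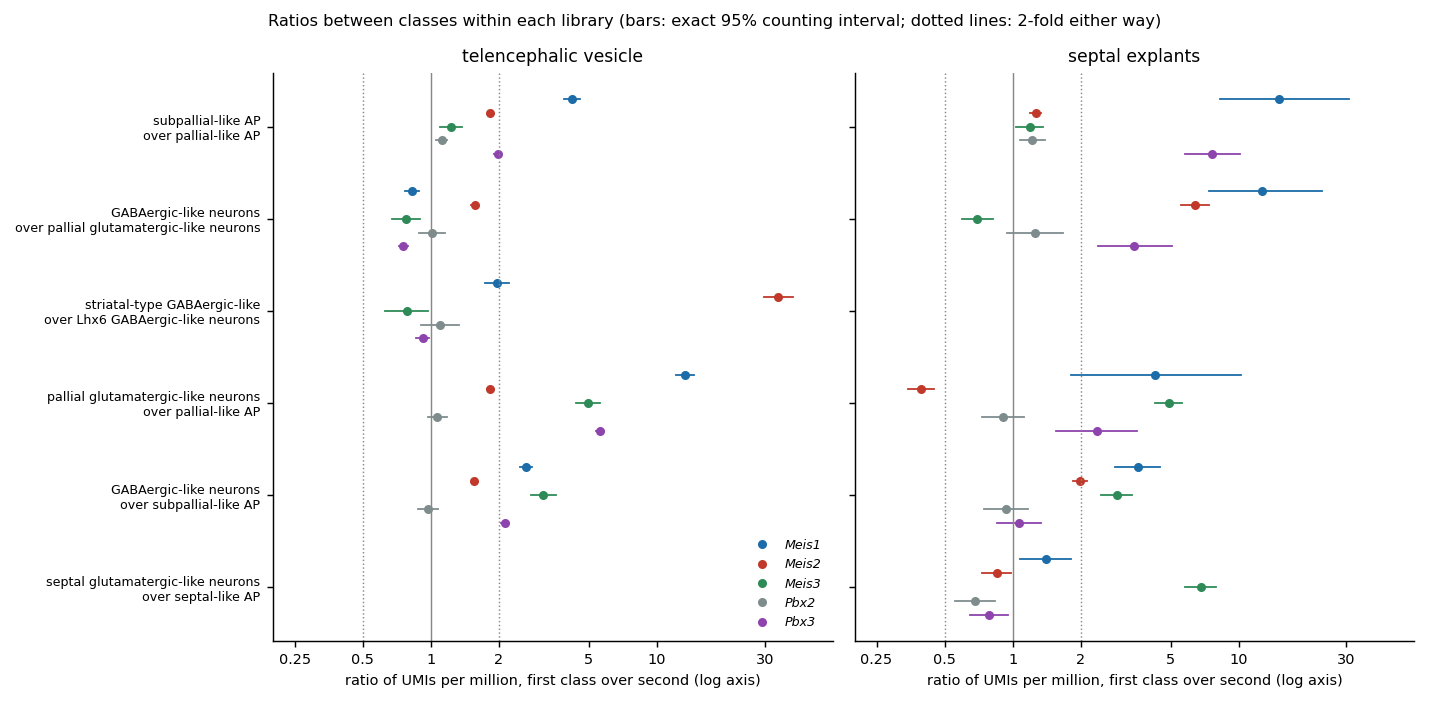
Ratio of CPM between 2 classes (log axis) for each gene, in the vesicle (left) and the explants (right), with exact 95% counting intervals as bars and dotted lines at 2-fold either way. *Meis2* stands at 34.4 in striatal-type over *Lhx6* GABAergic-like neurons, *Meis3* is above 2 in each neuron-over-progenitor ratio, and *Pbx2* stays between the dotted lines in all 10 comparisons.

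From progenitor to neuron, many genes change, so that the counts of members have to be read against a broad background. Pallial glutamatergic-like neurons over pallial-like APs had 3 of 5 members apart in the vesicle, where 39.5% of 12995 genes were. *Meis1* was 13.4-fold higher in the neurons (12.2 to 14.6), *Pbx3* 5.58-fold (5.35 to 5.81) and *Meis3* 4.96-fold (4.37 to 5.62), and *Meis2* had a ratio of 1.82 (1.76 to 1.87). The neurons had 302 CPM of *Meis1*, 843 of *Pbx3* and 1013 of *Meis2*. Ventral pallial-like APs, not used here, had 138, 209 and 1302. Which APs gave rise to these neurons was not tested, so stage and region cannot be told apart in these ratios. The *Meis2* ratio turned below 1 with all barcodes (0.729), at resolution 2.5 (0.563) and with cell cycle genes kept (0.503), and under the last of these *Meis1* was at 4.51 and *Pbx3* at 2.99. The explants had 3 of 5 members apart as well, beside 31.5% of 10284 genes. *Meis3* was 4.92-fold higher (4.29 to 5.65) and *Pbx3* 2.36-fold (1.56 to 3.56) in the neurons, although neither class was above the erythroid-like cells in *Pbx3*, and *Meis2* was lower with a ratio of 0.395 (0.345 to 0.450). *Meis1* had too few UMIs to be measured. At a clustering resolution of 0.8, which left 61 neurons in the class, *Pbx3* had a ratio of 0.399, on the other side of 1, and with doublets kept 4.04.

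GABAergic-like neurons over subpallial-like APs had 3 of 5 members apart in the vesicle, beside 34.1% of 13394 genes. These were *Meis3* (3.15-fold, 2.77 to 3.57), *Meis1* (2.63-fold, 2.47 to 2.80) and *Pbx3* (2.13-fold, 2.05 to 2.22), all higher in the neurons. *Meis2* had a pooled ratio of 1.55, with 2.73 for striatal-type and 0.0794 for *Lhx6* neurons alone. The explants had 2 of 5, beside 31.1% of 10558 genes, namely *Meis1* (3.57-fold, 2.83 to 4.49) and *Meis3* (2.89-fold, 2.46 to 3.37). *Meis2* fell just outside with a ratio of 1.996 (1.86 to 2.14), its interval reaching past the threshold. Septal glutamatergic-like neurons over septal-like APs, taken in the explants, had 1 of 5, beside 29.2% of 10587 genes. *Meis3* was 6.80-fold higher there (5.81 to 7.96), and the others lay between 0.684 for *Pbx2* and 1.40 for *Meis1*. *Meis3* was therefore 2-fold higher in neurons in all 5 comparisons of stage, and *Pbx2* in none, with ratios from 0.684 to 1.07.

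The course between the 2 ends was followed along a differentiation axis, the log2 ratio of UMIs of 11 neuronal to 9 AP genes, with the cells of each lineage in 10 bins of equal number. *Meis3* was highest in the last bin of every lineage. Its level in the septal lineage of the explants was 25.1 CPM in the first bin, 35.1 in bin 7, 117 in bin 8 and 179.6 in bin 10, and in the pallial lineage 24.0, 52.6, 94.4 and 148. The subpallial lineage had 31.2 CPM in bin 8, 50.8 in bin 9 and 107 in bin 10. Because bins hold equal numbers of cells, a bin number does not stand for the same place on the axis in each lineage. At a median axis value of 2.20 in the septal and 2.24 in the pallial lineage *Meis3* was at 117 (97.3 to 139.5) and 94.4 CPM (80.1 to 111), with overlapping intervals. In the vesicle, the pallial lineage had 51.0 CPM (42.0 to 61.3) at an axis value of 2.51 and the subpallial one 46.8 (38.7 to 56.2) at 2.54, which overlapped as well.

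*Meis2* did not change in 1 direction along the axis. In the pallial lineage of the vesicle it was at 855 CPM in the first bin, 262 in bin 7 and 1511 in bin 10, and the subpallial lineage went from 801 through 1161 in bin 4 and 631 in bin 8 to 1855 in bin 10. In the explants the level went up late in the subpallial lineage, from 164 CPM in bin 8 to 476 in bin 10, while the pallial lineage went down from 192 to 54.9. The septal lineage stayed between 58.5 and 94.0. *Meis1* and *Pbx3* of the vesicle were highest at the neuronal end of the pallial lineage, *Meis1* going from 30.0 CPM in bin 5 to 438 in bin 10 of the pallial lineage and *Pbx3* from 152 in the first bin to 1219 in the last, whereas *Pbx2* kept between 59.3 and 90.7 CPM over both lineages. The neurons of the pallial lineage of the vesicle are the mixed glutamatergic-like class described above.

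**Figure D3:**
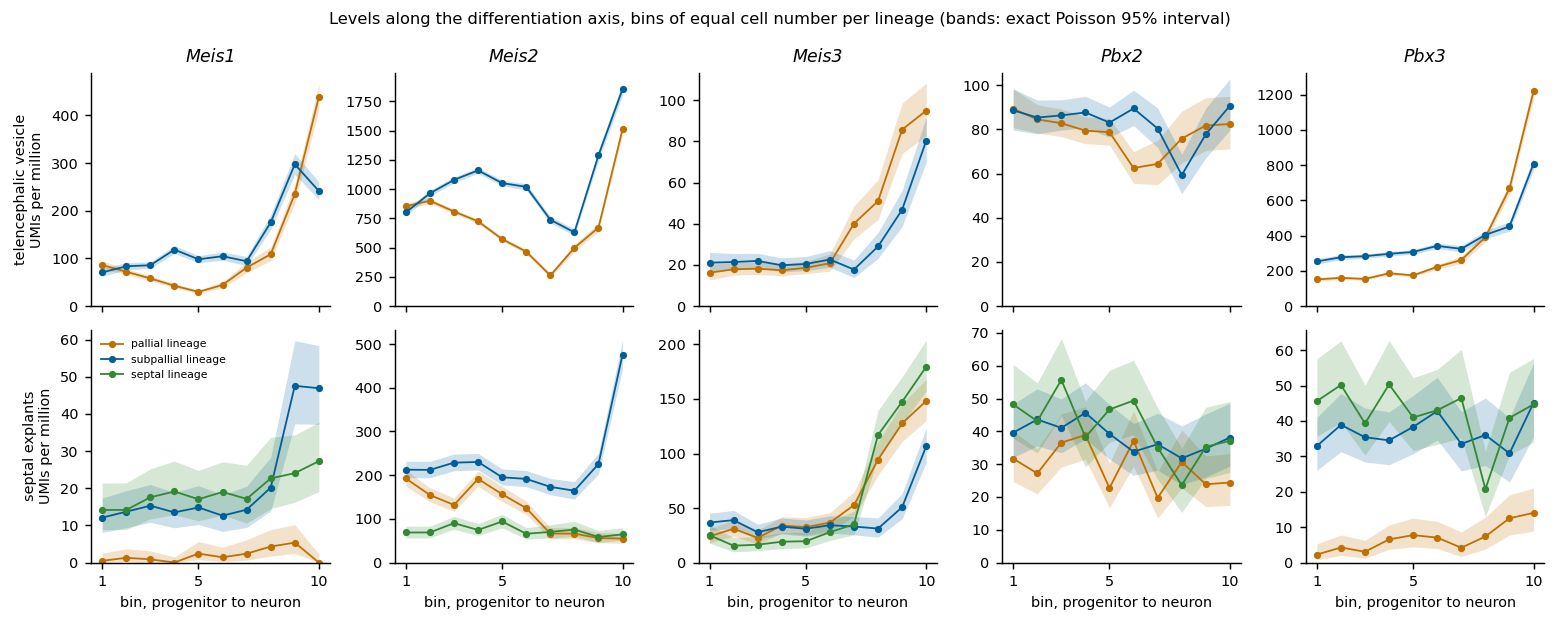
Level of each gene (CPM, linear axis from 0) along the differentiation axis in 10 bins of equal cell number per lineage, vesicle above and explants below, with exact Poisson 95% intervals as bands. *Meis3* is highest in the last bin of each lineage shown, and *Meis2* of the vesicle dips before the neuronal end, to 262 CPM in bin 7 of the pallial lineage.

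To find the genes most like each member, Pearson's r of log2(CPM + 1) was computed over the neural clusters of a library with every gene of at least 500 UMIs. The clusters share a library, differ in depth and are not independent, so r only describes likeness. For *Meis2* in the vesicle (21 clusters, 11715 genes), the nearest were 2 long noncoding genes, *G630016G05Rik* (r = 0.970) and *2700033N17Rik* (r = 0.918), then *Shisa2* (r = 0.852). Both noncoding genes lie beside *Meis2* on chromosome 2. *2700033N17Rik* is on the minus strand from 116066218 to 116067444, and its near end is 379 bases from the 5′ end of *Meis2*. *G630016G05Rik* is on the plus strand from 116067225 to 116085911, and starts 1386 bases from that end, facing away.

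The 3 genes had their highest class level in the same neurons. *G630016G05Rik* was at 52.0 CPM (44.1 to 61.0) in striatal-type GABAergic-like neurons, 22.9 (20.2 to 25.9) in ventral pallial-like APs, 16.5 (15.2 to 17.9) in subpallial-like APs, 12.4 (11.2 to 13.8) in pallial-like APs, 1.71 (1.24 to 2.32) in hem-like cells and 1.29 (0.267 to 3.78) in *Lhx6* GABAergic-like neurons. *2700033N17Rik* was at 33.8 CPM (27.4 to 41.2) in the striatal-type and 2.16 (0.700 to 5.03) in the *Lhx6* class. Pallial glutamatergic-like neurons stood somewhat apart, with 1013 CPM of *Meis2* but 11.1 (8.53 to 14.1) of *G630016G05Rik*, below the 22.9 of ventral pallial-like APs, which had 1302 of *Meis2*. Counts were low in the explants, with 118 and 433 UMIs over all neural cells and r of 0.742 and 0.781 over 26 clusters. GABAergic-like neurons again had the highest levels, 9.99 CPM (6.40 to 14.9) of *G630016G05Rik* and 11.7 (7.75 to 16.8) of *2700033N17Rik*, the latter with an interval overlapping that of subpallial-like APs (7.02 to 9.94). Whether reads of one transcript were assigned to a neighbour was not tested.

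**Figure D4:**
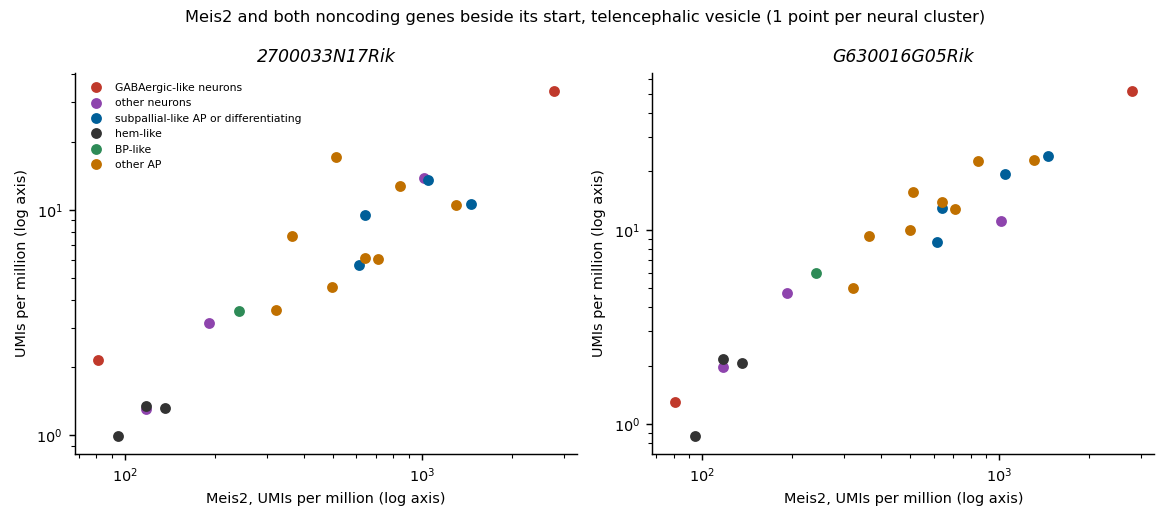
*Meis2* (horizontal, CPM, log axis) against the 2 noncoding genes beside its 5′ end (vertical, CPM, log axis), 1 point per neural cluster of the vesicle coloured by class. The striatal-type cluster is at the upper right with 2786 CPM of *Meis2*, and hem-like clusters and the *Lhx6* GABAergic-like cluster are at the lower left.

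The nearest genes of the other members were of several kinds. *Meis3* was nearest to *Tubb2b* (r = 0.975), *Stmn3* (r = 0.960) and *Crmp1* (r = 0.960) in the vesicle, genes of the neuronal cytoskeleton, and to *Plppr3*, *Nipsnap3b* (r = 0.949) and *Add2* (r = 0.943) in the explants. *Pbx3* was nearest to *Galnt17* (r = 0.908), *Mapk10* (r = 0.905) and *Kcnh8* (r = 0.902) in the vesicle, and to *Ntm* (r = 0.865), *Zfhx3* (r = 0.858) and *Six3* (r = 0.847) in the explants. *Meis1* was nearest to *Mir124-2hg* (r = 0.871), *Lhfpl4* (r = 0.847) and *St8sia1* (r = 0.843) in the vesicle, and to *Mageh1* (r = 0.901), *Dlk1* (r = 0.895) and *Smoc1* (r = 0.858) in the explants. *Meis2* of the explants had *Eif4h* (r = 0.785), *Acss1* (r = 0.778) and *Shisa2* (r = 0.765), so that *Shisa2* was among the 3 nearest in both libraries. *Pbx2* was nearest to *Dtnbp1* (r = 0.797), *Pcif1* (r = 0.778) and *Msto1* (r = 0.768) in the vesicle, and to *Igf2bp3* (r = 0.793), *Naa38* (r = 0.778) and *Tmed10* (r = 0.736) in the explants. Among the members themselves, *Meis1* and *Pbx3* were most alike, with r of 0.709 in the vesicle and 0.823 in the explants, and *Meis2* and *Pbx3* had 0.147 and 0.0233.

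Because MEIS and PBX act as partners, cells holding both were counted after thinning every cell to one depth. At least 1 *Meis* and 1 *Pbx* UMI were found in 284 of 376 striatal-type GABAergic-like neurons of the vesicle (75.5%, 70.9 to 79.8%), in 64.9% of ventral pallial-like APs (60.3 to 69.3%) and in 61.3% of subpallial-like APs (59.3 to 63.3%). Hem-like cells were the lowest neural class with 15.2% (13.2 to 17.4%), and erythroid-like cells had 2.80% (1.35 to 5.09%). Taken separately, a *Meis* UMI was in 95.7% and a *Pbx* UMI in 78.2% of the striatal-type cells, and in 28.4% and 51.6% of hem-like cells. The order of classes was not set against what these separate shares predict. All 5 members together were found in 2.09% of pallial glutamatergic-like neurons and in at most 1.06% of any other class. The explants ranged from 9.68% (6.47 to 13.8%) in BP-like cells to 36.4% (29.5 to 43.7%) in GABAergic-like neurons at their own depth of 8000 UMIs.

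Cell by cell, the members were found together at 0.991 to 1.08 times the number that cluster and depth predict. The number of cells with both genes of a pair was compared with the number expected from each gene's share within clusters and 10 groups of depth. The interval used is that of the count alone and does not hold both shares fixed, as the expectation does. It is therefore wider than the spread of independent genes, and a pair inside it is not shown to be independent. In the explants 0 of 10 pairs were beyond the interval of the count, with ratios of observed to expected from 0.991 to 1.08. In the vesicle 2 of 10 were, *Meis1* with *Meis2* (3832 cells against 3689 expected, ratio 1.04, 1.01 to 1.06) and *Meis1* with *Pbx3* (3641 against 3533, ratio 1.03, with an interval from just above 1 to 1.06). At a finer clustering 1 pair was left, *Meis1* with *Meis2*. With doublets kept, with thinned cells or with at least 2 UMIs required of each gene, *Meis2* with *Pbx3* was added, at ratios of 1.01, 1.04 and 1.03, and *Meis1* with *Meis2* reached 1.09 in thinned cells. Against the simple product of shares over all neural cells, 4 pairs of the explants and 10 of the vesicle were beyond. Pairs of other genes were not counted, so these counts of pairs have no background. In the vesicle *Meis2* was found in 79.7% and *Pbx3* in 76.7% of neural cells, which leaves the ratio of this pair little room above 1.

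**Figure D5:**
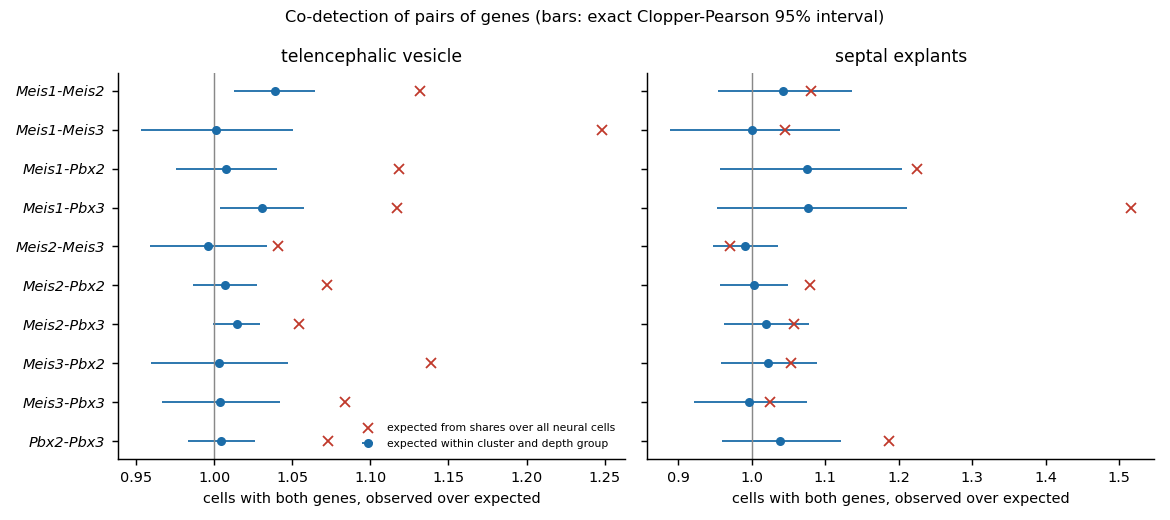
Cells holding both genes of a pair, observed over expected, for the vesicle (left) and the explants (right). Blue points take the expectation within cluster and depth group, with exact Clopper-Pearson 95% intervals as bars, and red crosses take it from shares over all neural cells. The blue points lie between 0.991 and 1.08 and the crosses reach 1.52.

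Of 14 other listed TALE genes and PBX interactors, 5 to 8 were measured in each comparison, and 0 were 2-fold higher in the first-named class of any comparison. Subpallial-like over pallial-like APs had 1 of 8 apart in the vesicle (9.69% of all genes) and 0 of 7 in the explants (7.31%). GABAergic-like over pallial glutamatergic-like neurons had 1 of 6 (9.67%) and 1 of 5 (9.06%). Striatal-type over *Lhx6* GABAergic-like neurons had 1 of 5 (4.28%). In each comparison of stage, 3 of 7 measured genes were apart in the explants and 4 of 8 in the vesicle, all lower in neurons. Of all genes, 29.2% to 39.5% were apart in either direction in these comparisons. *Tgif1* and *Tgif2*, TALE genes that act as repressors, were at least 2-fold lower in neurons in all 5 of them. *Tgif1* had a ratio of 0.267 (0.210 to 0.336) and *Tgif2* of 0.238 (0.180 to 0.309) in pallial glutamatergic-like neurons over pallial-like APs of the vesicle, and 0.367 (0.309 to 0.432) and 0.260 (0.211 to 0.318) in the explants. *Pknox1*, a relative of *Meis*, stayed within 2-fold in all comparisons. The partners of PBX in the hindbrain and trunk were missing, since 39 listed *Hox* genes summed to 12 UMIs in the neural cells of the explants and 21 in those of the vesicle, and none reached 50.

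Genes known for work with MEIS or PBX in the subpallium and olfactory bulb were a list of 16. For striatal-type over *Lhx6* GABAergic-like neurons, where *Meis2* differed most, 8 of 16 measured genes were 2-fold higher in the striatal-type class and 0 lower, where 4.28% of all genes were apart, with a median ratio of 1.86 beside 1.01 over all genes. Among them were *Ebf1*, at 1000.2 against 3.02 CPM, *Zfp503*, at 124 against 2.16, *Pax6*, which works with *Meis2* in the olfactory bulb lineage, at 66.2 against 9.05, *Sp8*, at 106 against 17.2, and *Six3*, at 279.5 against 68.6. Within the striatal-type class, the finer group of 68 cells had 3463 CPM of *Ebf1* and 35.1 of *Sp8*, and that of 316 had 201 and 129. *Dlx1*, *Dlx2*, *Dlx5* and *Dlx6*, which both kinds of GABAergic neuron use, had ratios from 1.07 to 1.43. Most genes of the list were also among the markers by which classes were named. *Isl1*, *Ebf1*, *Foxp1*, *Foxp2*, *Zfp503* and *Six3* are markers of the striatal-type class itself. The count of 8 of 16 was thus partly fixed by the naming, and these levels describe the classes and do not test them. For subpallial-like over pallial-like APs, 6 of 13 measured genes of the list were higher and 1 lower in the explants (7.31% of all genes apart), and 7 of 15 higher and 4 lower in the vesicle (9.69%), with *Gsx2* at 29.2-fold and 20.5-fold among the first and *Pax6* at 0.307 and 0.201 among the second.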

How the data were processed

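Single cells of septal explants and of the telencephalic vesicle were profiled with 10x Genomics 3′ kits (v2 and v3.1). The authors deposited raw counts, as UMIs per gene and barcode without normalisation, made per the labels with Cell Ranger 2.1.1 and 7.1.0 and mm10, with reporter sequences added. Whether intronic reads were counted is not given in the sources used here. Over genes with at least 500 UMIs in both libraries, the median ratio of vesicle to explant CPM was 0.684 for spans under 10 kb and 3.49 for spans of 100 kb or more, so levels were not compared between libraries.

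Barcodes (5827 and 14283) were filtered by mitochondrial share within 3 MAD of the median and by Scrublet, which removed 60 doublets (1.10%) and 713 (5.72%). Cells were clustered in Scanpy 1.11.5 on 2000 variable genes (cell cycle genes left out), 30 components, 15 neighbours and Leiden resolution 1.5. Clusters needed 3 markers to be named, and 3 in each library (339 and 988 cells, the latter shallow) had no name. The naming rule, including that the *Lhx6* name needs *Lhx6* itself, was revised after clusters had been seen. Members and lists were chosen with earlier results of these data known. Named genes are all members, the 3 nearest genes per member and library, and the leading genes of the lists, and some genes are not reported here.

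Ratios used genes with at least 50 UMIs in both classes together and exact conditional intervals, and were tested on simulated data. With 1 library per group, cells are not replicates, so no p-value was computed. Shares were repeated with cells thinned to 8000 UMIs (explants, 511 left out) and 3500 (vesicle, 1145 left out). Alternatives were other filters, clusterings, gates, scalings, weights and thresholds. Python 3.11.15 with numpy 2.4.6, scipy 1.17.1, pandas 2.3.3, igraph 0.11.9 and matplotlib 3.10.9 was used.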

Additional observations from a re-analysis of the deposited data

Results flagged for a closer look

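The 2 libraries differed in the direction of 3 ratios, and none of these differences was tested, since each library is a single pool. *Meis1* had a ratio of 12.7 in GABAergic-like over pallial glutamatergic-like neurons of the explants and 0.827 in those of the vesicle. *Pbx3* had 3.45 and 0.755 in the same comparison. *Meis2* had 0.395 in pallial glutamatergic-like neurons over pallial-like APs of the explants and 1.82 in the vesicle. All 3 rest on the pallial glutamatergic-like class, which held 592 CPM of *Neurod6* in the explants and 14.8 in the vesicle, and the part of this difference in the ratios was not tested. At resolution 2.5 the vesicle had the direction of the explants, with 2.17 for *Meis1*, 1.22 for *Pbx3* and 0.563 for *Meis2*, and so it had with cell cycle genes kept and with all barcodes. At that resolution only 166 cells of the class kept its name. They were led by *Otp* and *Sim1*, diencephalic-like markers, and had 4.18 CPM of *Neurod6*, so they are unlike the explant neurons. With another seed the vesicle did not have that direction, with 0.809 for *Meis1*, 0.715 for *Pbx3* and 1.87 for *Meis2*.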

How the results depend on the processing

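Over the alternatives, 49 measured member ratios gave 530 values, of which 349 stayed inside the counting interval of the reported ratio and 53 were more than 1.5 times away from it. On the other side of 1 lay 38 values, and 31 of the ratios had none there. Only 1 of these values belonged to a ratio that was 2-fold apart as reported, *Pbx3* in pallial glutamatergic-like neurons over pallial-like APs of the explants, with 0.399 at resolution 0.8. Counts of members 2-fold apart were within 1.5 times the reported count in 113 of 128 alternatives. For subpallial-like over pallial-like APs of the vesicle the count of 1 became 2 with all barcodes, with thinned cells and with the mean of single-cell CPM, 0 with marker-gated cells, and 3 with a fold of 1.5 or without the deeper pallial-like AP cluster. For GABAergic-like over pallial glutamatergic-like neurons of the vesicle, the count of 0 became 2 with all barcodes, at resolution 2.5 and with cell cycle genes kept, and 1 with a fold of 1.5 and with striatal-type or *Lhx6* neurons alone. For striatal-type over *Lhx6* GABAergic-like neurons, the count of 1 became 2 with thinned cells, with the mean of single-cell CPM and with a fold of 1.5. Pairs beyond the interval of the count became 4 in the explants and 10 in the vesicle with the product of shares, and 1 in the vesicle at resolution 2.5. The causes were not tested. *Meis1* had 11 UMIs in pallial-like APs of the explants, so its ratio to this class has an interval from 8.28 to 30.7. The alternatives with 1 GABAergic-like class or 1 pallial-like AP cluster left out were chosen after seeing the data. No paired analysis was possible because each group has 1 library.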

Other observations

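Outside the neural classes, *Pbx3* of the vesicle was at 315 CPM (302 to 329) in mesenchyme-like cells, with a UMI in 82.0% of 494 cells, while *Meis1* and *Meis2* there were at 5.78 and 31.3 CPM, near or at the levels of erythroid-like cells. Macrophage-like cells had 91.7 CPM of *Meis1*, and endothelial-like cells 194 CPM of *Meis2* (167 to 224) in 28 cells. In the explants, 1 cluster of 154 cells without a name, led by *Calb2*, *Tfap2e* and *Cbln2*, had the highest *Meis3* level of all clusters, 212 CPM.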
